A study of Mus musculus with 18 samples.

Results

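The RNA and the open chromatin of 9 genes of the Hedgehog pathway were followed in mouse small cell lung cancer cells. They are the ligands Shh, Ihh and Dhh, the receptor Ptch1, the transducer Smo, the ligand-binding protein Hhip and the transcription factors Gli1, Gli2 and Gli3, chosen by name for their place in the pathway by a rule that uses no measured value, although earlier results of these data were known when they were chosen. They make up 9 of the 46078 genes in the RNA table. Their chromatin was read from 68 of the 111664 peaks in the table of open regions, namely those that overlap a span from 5000 bp before the gene start to the gene end.

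Hedgehog ligands are secreted proteins that bind Ptch1. Without ligand, Ptch1 keeps Smo inactive, and the Gli proteins are processed at the primary cilium into forms that repress their targets. With ligand, Smo is released, activating Gli forms reach the nucleus, and Gli1, Ptch1 and Hhip are among the genes they switch on. In the developing lung the epithelium makes Shh and the surrounding mesenchyme responds to it.

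The study asked how tumors change when CARM1, an arginine methyltransferase, is lost or when the arginine of the transcription factor NFIB that it methylates is replaced. RNA-seq and ATAC-seq, which counts reads where a transposase can cut open DNA, were run on tumor cells of 3 genotypes, with 3 libraries per genotype and assay. TKO tumors carry conditional alleles of Rb1, Trp53 and a further retinoblastoma family gene, given as Rbl1 in the sample labels and as Rbl2 in the study's text. CARM1 knockout tumors carry these alleles and a conditional Carm1 allele, and NFIB mutant tumors carry them together with an Nfib allele in which this arginine is changed to lysine, present in the whole animal. All groups thus share the 3 conditional tumor suppressor alleles, and their deletion in the cells measured was not tested here. Adenovirus with Cre was delivered through the trachea at 8 weeks of age, and lungs were collected 28 weeks later from animals said to be independent. The methods describe sorting for the tdTomato reporter that Cre switches on, the results speak of tumor biopsies, and cancer cell lines are also mentioned for ATAC-seq, so which of these were measured could not be settled.

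RNA libraries held 15848866 to 20915057 counts on genes and ATAC libraries 26917178 to 47653979 counts on peaks, so that 3 counts, the level at or under which a gene or peak was taken as not detected, equal 0.143 to 0.189 and 0.063 to 0.111 CPM, respectively. CPM is the count per 1000000 counts of the library, with the library total scaled by the TMM factor of edgeR. The limits just given use the unscaled totals. These limits cover counting error only. Carm1 itself was not lower as a whole gene in the CARM1 knockout libraries (50.7 to 79.0 CPM, against 44.5 to 103 CPM in TKO). But gene counts do not resolve the deleted exons and so do not check the knockout. Nfib RNA was called lower in both mutants. It was at 420 to 579 CPM in TKO, 74.4 to 216 CPM in CARM1 knockout and 83.2 to 105 CPM in NFIB mutant libraries. The part of this fall in the Hedgehog results was not tested. Neuroendocrine markers, which define small cell lung cancer, summed to 1563 to 2092 CPM over 12 genes in TKO and to 33.4 to 51.0 CPM in NFIB mutant libraries, where 11 of the 12 were called lower. In CARM1 knockout the sum was 59.3 and 188 CPM in replicates 1 and 2 but 1708 CPM in replicate 3. Calca alone gave 832 CPM of this last sum, against 5.13 to 21.9 CPM in TKO. The median of the 12 genes was 75.8 CPM in replicate 3 and 84.9 to 178 CPM in the TKO libraries. In CARM1 knockout 3 of the 12 were called lower. Neurod1 had no count in any mutant library. Of 7 fibroblast markers, 7 were called higher in the CARM1 knockout and 6 in the NFIB mutant, with sums of 16.5 to 66.1 CPM in TKO, 14865 to 26676 CPM in CARM1 knockout and 10095 to 16077 CPM in NFIB mutant libraries. Of the smaller lists, 4 of 5 smooth muscle, 6 of 10 leukocyte, none of 9 lung epithelial and 1 of 6 endothelial markers were called higher in CARM1 knockout, and 3, 2, 4 and 1 in NFIB mutant tumors. One lung epithelial marker was called lower in each mutant and 1 endothelial marker in NFIB mutant tumors, and over all genes 20.5% were called higher and 18.3% lower in the CARM1 knockout and 22.3 and 23.5% in the NFIB mutant. Lung epithelial markers summed to 2710, 298 and 4.12 CPM in the NFIB mutant libraries and 22.2 to 58.8 CPM in TKO. The leukocyte marker Cd3e was at 0 in every library. These marker changes run alongside every comparison of a mutant with TKO given here, their part in the Hedgehog results was not tested, and in bulk samples fewer cells of a type and less RNA per cell cannot be told apart.

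Gli2 and Gli3 are large genes with many peaks, and Hhip lost accessibility at both of its peaks, so sequences at these genes are shown first. All are from GRCm38, on the strand of the gene, with CG dinucleotides in capitals. The 250 bases before the RefSeq start are given for the promoters, which lie under peaks that rose at Gli2 and Gli3 and fell at Hhip.
Gli2 promoter, chr1:119053620-119053869, minus strand: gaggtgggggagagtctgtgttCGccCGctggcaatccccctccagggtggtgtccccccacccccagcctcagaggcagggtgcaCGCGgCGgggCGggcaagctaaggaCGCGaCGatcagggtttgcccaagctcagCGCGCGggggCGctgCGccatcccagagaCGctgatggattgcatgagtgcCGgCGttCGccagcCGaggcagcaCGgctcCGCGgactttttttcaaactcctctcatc
Gli3 promoter, chr13:15463473-15463722, plus strand: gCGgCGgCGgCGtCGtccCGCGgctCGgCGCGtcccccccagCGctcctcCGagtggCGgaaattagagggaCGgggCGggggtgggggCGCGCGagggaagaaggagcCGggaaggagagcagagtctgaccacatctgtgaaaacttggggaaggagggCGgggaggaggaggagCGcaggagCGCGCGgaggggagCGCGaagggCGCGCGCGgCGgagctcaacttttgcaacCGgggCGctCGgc
Hhip promoter, chr8:80058009-80058258, minus strand: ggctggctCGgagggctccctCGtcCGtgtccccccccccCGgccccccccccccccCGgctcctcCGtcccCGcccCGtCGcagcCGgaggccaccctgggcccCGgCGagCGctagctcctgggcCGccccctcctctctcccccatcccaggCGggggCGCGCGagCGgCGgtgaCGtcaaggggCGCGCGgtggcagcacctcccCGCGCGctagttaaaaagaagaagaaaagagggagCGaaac
The 3 promoter stretches hold 22, 34 and 28 CG dinucleotides. The next 300 bases are centred on the intronic peaks with the largest rise at Gli2 and at Gli3 and the largest fall at Hhip, by the mean log2 fold change of both mutants.
Gli2 intron, chr1:118898418-118898717, minus strand: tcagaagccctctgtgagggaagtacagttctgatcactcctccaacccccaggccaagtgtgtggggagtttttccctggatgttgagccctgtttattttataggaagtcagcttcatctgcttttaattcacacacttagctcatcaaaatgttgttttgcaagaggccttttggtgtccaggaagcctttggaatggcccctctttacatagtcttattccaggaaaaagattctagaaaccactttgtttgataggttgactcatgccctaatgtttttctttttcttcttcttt
Gli3 intron, chr13:15624597-15624896, plus strand: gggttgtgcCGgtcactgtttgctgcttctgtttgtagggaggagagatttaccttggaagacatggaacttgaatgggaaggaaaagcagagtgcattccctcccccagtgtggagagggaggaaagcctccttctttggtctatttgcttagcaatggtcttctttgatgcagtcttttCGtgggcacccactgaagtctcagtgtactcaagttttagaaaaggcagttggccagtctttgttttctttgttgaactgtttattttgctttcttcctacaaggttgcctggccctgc
Hhip intron, chr8:80054286-80054585, minus strand: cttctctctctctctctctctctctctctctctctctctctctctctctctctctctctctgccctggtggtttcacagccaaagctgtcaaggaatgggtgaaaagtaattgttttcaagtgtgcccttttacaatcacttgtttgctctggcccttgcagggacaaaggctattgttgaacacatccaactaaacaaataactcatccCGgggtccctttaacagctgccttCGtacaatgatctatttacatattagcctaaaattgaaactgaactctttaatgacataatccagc
These 3 stretches hold 0, 2 and 2 CG dinucleotides, against a median of 4 in the 300 bases around the middle of all 111664 peaks. The Gli binding sequence GACCACCCA, searched on both strands, was found in the middle of only 1 of the 68 Hedgehog peaks, in an intron of Gli2 83967 bp from the start, where it is marked in capitals in place of CG.
Gli2 intron, chr1:118969503-118969802, minus strand: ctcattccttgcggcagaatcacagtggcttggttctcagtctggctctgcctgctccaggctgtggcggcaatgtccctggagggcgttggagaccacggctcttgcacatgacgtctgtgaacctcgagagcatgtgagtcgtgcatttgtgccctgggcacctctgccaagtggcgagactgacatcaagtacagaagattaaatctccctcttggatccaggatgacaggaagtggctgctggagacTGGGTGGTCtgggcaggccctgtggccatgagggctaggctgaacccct
That share, 1.47%, stands beside 0.245% of all peaks and 0.253% of 32851 RefSeq promoters. A match is a description of letters and not of a bound site. The peak was not called in CARM1 knockout (log2 fold change 1.22) or NFIB mutant tumors (0.13). The nuclear factor I sequence TTGGC, followed after 5 bases by GCCAA, was found in none of the 68 windows, and in 0.1% of those of all peaks. Neither sequence was found in the 300 base RefSeq promoters of Dhh, Gli2, Gli3, Hhip, Ihh, Ptch1 and Smo, which were matched for 7 of the 9 genes, the start used for Ptch1 lying 7863 bp into the gene.

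RNA of the ligands was at the edge of detection. Shh (chromosome 5, 28456815 to 28467256) had 0, 1 and 2 counts in the TKO libraries, 0, 0 and 7 in the CARM1 knockout libraries and 42, 23 and 0 in the NFIB mutant libraries. The 2 NFIB mutant libraries with counts stood above all others at 2.55 and 1.42 CPM, while the third had none. Too few libraries held counts for the gene to pass the filter on low counts, and with the filter lifted the quasi-likelihood test of edgeR did not call it (adjusted p = 0.109 in NFIB mutant and 0.589 in CARM1 knockout). DESeq2 called it higher in NFIB mutant tumors (adjusted p = 0.0711). Leaving out any single CARM1 knockout library, or NFIB mutant replicate 3, let the gene pass the filter. The edgeR test then called it higher in NFIB mutant tumors. It also passed without any single TKO library and was then not called. Ihh (chromosome 1, 74945315 to 74951672) had 5, 9 and 11 counts in TKO, 1, 0 and 4 in CARM1 knockout and 3, 2 and 0 in NFIB mutant libraries. Every TKO library lay above every mutant library, by a narrow margin (0.240 against 0.224 CPM), and the mutants overlapped each other. The counts were too few for the filter, and without it the adjusted p was 0.345 and 0.335.

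Dhh (chromosome 15, 98891152 to 98898540) passed the filter but stayed low. It was measured at 0.624, 0.349 and 0.310 CPM in TKO, 0.135, 0 and 3.14 CPM in CARM1 knockout and 0.121, 0.739 and 0 CPM in NFIB mutant libraries. CARM1 knockout replicate 3 was the only library above 1 CPM, and the groups overlapped. Its log2 fold change was 1.35 in the CARM1 knockout and -0.56 in the NFIB mutant, neither of them called, and the first became -2.55 without CARM1 knockout replicate 3.

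Ptch1, the receptor (chromosome 13, 63508328 to 63573598), was expressed in every library. Its level was 111, 102 and 47.6 CPM in TKO, 97.5, 65.5 and 57.3 CPM in CARM1 knockout and 60.6, 89.2 and 27.0 CPM in NFIB mutant libraries. The 3 genotypes overlapped. The log2 fold change was -0.24 (standard error 0.48) without CARM1 and -0.56 (standard error 0.48) with mutant NFIB, and neither passed the quasi-likelihood test of edgeR (adjusted p = 0.711 and 0.364).

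**Figure D1:**
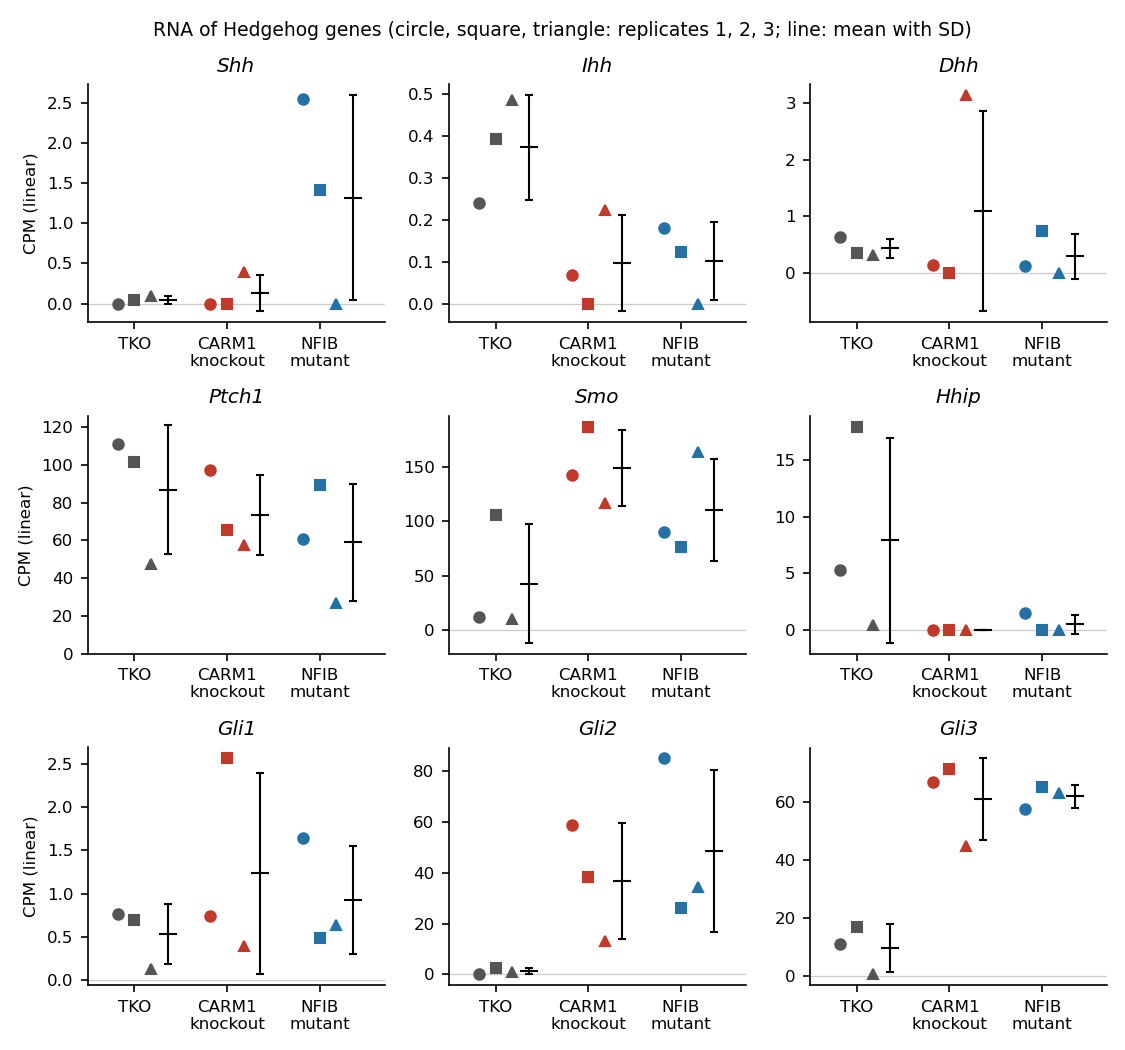
RNA level of the 9 Hedgehog genes in CPM on linear axes, with a separate scale in each panel. Points are the 3 libraries of TKO, CARM1 knockout and NFIB mutant tumors, and lines the mean with its SD. Gli2 and Gli3 sat above TKO in all 6 mutant libraries, Hhip had counts in only 1 mutant library, and the levels of Ptch1 and Gli1 overlapped between the genotypes.

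Smo (chromosome 6, 29735503 to 29761365), the membrane protein that passes the signal on, depended on a single TKO library. It stood at 12.1, 106 and 10.2 CPM in TKO, 142, 187 and 117 CPM in CARM1 knockout and 90.5, 76.6 and 164 CPM in NFIB mutant libraries. TKO replicate 2 lay within the range of the NFIB mutant libraries, and the other 2 TKO libraries lay below every mutant library. The log2 fold changes of 1.80 and 1.37 were not called by the quasi-likelihood test of edgeR (adjusted p = 0.137 and 0.222). Without TKO replicate 2 they were 3.73 (adjusted p = 0.00396) and 3.30 (adjusted p = 0.00415) and both called, and DESeq2 called the gene higher in CARM1 knockout on all libraries.

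Hhip (chromosome 8, 79965851 to 80058006), which binds Hedgehog ligands at the cell surface and keeps them from Ptch1, was not detected in the RNA of CARM1 knockout tumors. TKO libraries held 5.32, 17.9 and 0.442 CPM. No read was counted in any of the 3 CARM1 knockout libraries, and the NFIB mutant libraries held 1.46, 0 and 0 CPM. CARM1 knockout lay below every TKO library, and NFIB mutant replicate 1 lay inside the TKO range. Set against 3 counts per library, the mean level without CARM1 was at least 43.4-fold below that of TKO, a bound that ranged from 15.8 to 63.9-fold when each TKO library was left out in turn. Hhip was called lower in CARM1 knockout (adjusted p = 0.0539 from the quasi-likelihood test of edgeR, Benjamini-Hochberg adjusted) and not in NFIB mutant tumors (adjusted p = 0.177). The call was lost without TKO replicate 2 (adjusted p = 0.114) and without CARM1 knockout replicate 1 (0.110) or replicate 2 (0.108), and in NFIB mutant tumors the gene was called once replicate 1 was left out (adjusted p = 0.0639). The gene passed the filter mainly through the TKO libraries.

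Gli1 (chromosome 10, 127329882 to 127341974), whose own transcription follows pathway activity, remained low. It was present at 0.767, 0.699 and 0.133 CPM in TKO, 0.744, 2.56 and 0.393 CPM in CARM1 knockout and 1.64, 0.492 and 0.634 CPM in NFIB mutant libraries. All 3 genotypes overlapped, and the log2 fold changes of 1.2 (standard error 0.92) and 0.79 (standard error 0.92) were not called (adjusted p = 0.329 and 0.509 from the quasi-likelihood test of edgeR). The gene overlaps the annotated Gm47200, and whether the counting used strand is not given in the sources used here.

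Gli2, the main activator among the Gli factors (chromosome 1, 118834132 to 119053619), showed the largest rise among the 9 genes. TKO libraries had 0.336, 2.58 and 0.841 CPM, CARM1 knockout libraries 58.5, 38.4 and 13.1 CPM, and NFIB mutant libraries 84.9, 26.2 and 34.2 CPM. Every mutant library exceeded every TKO library, and the lowest mutant value was that of CARM1 knockout replicate 3. The log2 fold change was 4.86 (standard error 0.95, adjusted p = 0.00781) in CARM1 knockout and 5.26 (standard error 0.96, adjusted p = 0.00494) in NFIB mutant tumors, from the quasi-likelihood test of edgeR, Benjamini-Hochberg adjusted. Leaving out CARM1 knockout replicate 3, the library with high neuroendocrine markers, gave 5.31 (adjusted p = 0.00671 from the same test). The call was made under every alternative that tested the gene.

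Gli3 (chromosome 13, 15463235 to 15730026), whose processed form is the main repressor of the pathway, rose from a higher starting level. It was at 10.9, 16.9 and 0.487 CPM in TKO, 66.9, 71.4 and 44.8 CPM in CARM1 knockout and 57.5, 65.4 and 63.3 CPM in NFIB mutant libraries. The mutant libraries did not overlap TKO, in which replicate 3 was far below the others. Its log2 fold change was 2.69 (standard error 0.93, adjusted p = 0.0563) in CARM1 knockout and 2.72 (standard error 0.93, adjusted p = 0.0473) in NFIB mutant tumors by the quasi-likelihood test of edgeR. These calls were close to the threshold. In CARM1 knockout the call was lost when only the TKO and CARM1 knockout libraries were fitted (adjusted p = 0.107) and without TKO replicate 1 (0.117), CARM1 knockout replicate 1 (0.115) or replicate 2 (0.116), and in NFIB mutant tumors without TKO replicate 1 (0.101). Without CARM1 knockout replicate 3 the value was 2.93 (adjusted p = 0.0652).

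Genes count as called where the adjusted p is below 0.1 and the log2 fold change is 0.8 or more in size. In CARM1 knockout, Gli2 and Gli3 were called higher and Hhip lower among the 7 genes tested, where 38.8% of all 15514 genes tested were called, 20.5% higher and 18.3% lower. In NFIB mutant tumors Gli2 and Gli3 were called higher and none lower, where 45.8% of all genes were called. The 2 comparisons share the TKO libraries, so their likeness is not independent. Between CARM1 knockout and NFIB mutant tumors edgeR called none of the 9 genes and 0% of all genes, although 1415 genes had an unadjusted p under 0.05 and DESeq2 called 540. For Gli2 this difference was -0.40 (standard error 0.80) and for Gli3 -0.02 (standard error 0.87), on the log2 scale.

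**Figure D2:**
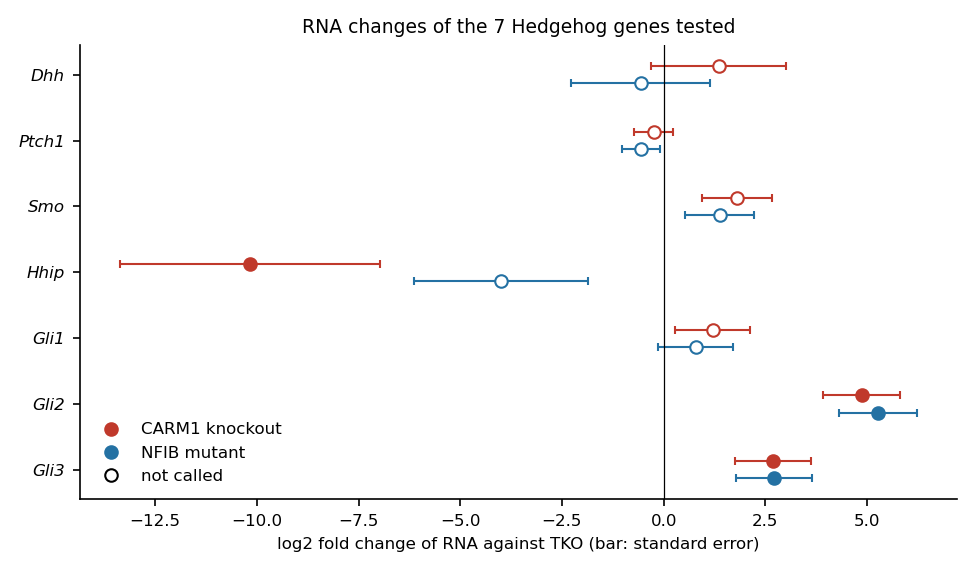
Log2 fold change of RNA against TKO, with its standard error, for the 7 genes tested in CARM1 knockout and NFIB mutant tumors, where filled points were called. Gli2 and Gli3 were filled to the right in both mutants. The fitted value of Hhip in CARM1 knockout, where no read was counted, depends on the prior count and is not a measure of size.

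Per length of exon (RPKM, the CPM per kilobase), Smo and Ptch1 led in TKO at 7.58 ± 9.69 and 6.12 ± 2.42 RPKM (mean ± SD, n = 3), and their ranges overlapped. Gli3 followed at 0.985 ± 0.866 and Hhip at 0.871 ± 0.995 RPKM, and the ranges of neighbours overlapped from there down to Dhh, with Shh last. In CARM1 knockout Smo stood alone at the top with 26.5 ± 6.28 RPKM, followed by Gli3 (6.36 ± 1.48), Gli2 (5.34 ± 3.31) and Ptch1 (5.18 ± 1.5), whose ranges overlapped. The order in NFIB mutant tumors was Smo (19.6 ± 8.34), Gli2 (7.05 ± 4.64), Gli3 (6.47 ± 0.423) and Ptch1 (4.16 ± 2.20), where Smo did not overlap the rest. Dhh, Gli1, Shh, Ihh and Hhip were each under 0.5 RPKM on average in both mutants.

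The makeup of the Gli factors can be read from the same scale. Gli1, Gli2 and Gli3 together reached 1.34, 2.28 and 0.200 RPKM in the TKO libraries, 15.6, 13.5 and 6.66 RPKM in CARM1 knockout and 18.7, 10.7 and 11.7 RPKM in NFIB mutant libraries. All 6 mutant libraries were higher. Gli1 made up 6.14 to 13.3% of this sum in TKO and 0.919 to 3.79% in the mutants, without overlap. Gli2 made up 3.64, 16.5 and 61.3% in TKO and 28.7 to 66.1% in the mutants, so that its share, unlike its level, overlapped between the genotypes.

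The genes whose pattern over the 9 libraries was nearest to that of Gli2, by the root mean square difference of centred log2 CPM over the 15514 genes tested, were Loxl2 (0.61), Cela1 (0.68) and Cgnl1 (0.68). Loxl2, a collagen cross-linking enzyme, ran from 2.65 to 22.1 CPM in TKO and from 177 to 426 CPM in the mutants, and like Gli2 it was highest in NFIB mutant replicate 1 and, within TKO, in replicate 2. Nearest to Gli1 were Lmo7 (0.32), Inava (0.33) and Lrig3 (0.43), and nearest to Ptch1 were Timm21 (0.20), Gtpbp10 (0.25) and Gm42659 (0.26).

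The other 50 genes of the pathway were grouped by role, and 49 could be tested. In CARM1 knockout 17 were called higher and 6 lower, and the NFIB mutant numbers were 17 and 8, where 20.5 and 18.3% and then 22.3 and 23.5% of all genes were called in those directions. Scaled by library totals alone the splits were 14 higher and 10 lower, and 14 and 14.

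Of 6 genes for ligand release and processing, CARM1 knockout tumors had 2 called higher and 2 lower, and NFIB mutant tumors 2 and 3. Hhat, which attaches palmitate to the ligands, rose from 0.708 to 4.85 CPM in TKO to 7.99 to 8.79 CPM in CARM1 knockout and 7.28 to 16.6 CPM in NFIB mutant libraries. Disp1, which exports the lipid-bearing ligand, rose from 1.46 to 18.2 CPM to 48.7 to 58.6 and 25.6 to 58.2 CPM. Scube2, a secreted partner in ligand release, fell from 1.09 to 3.36 CPM to at most 2 counts in any mutant library, at least 11.6-fold and 11.4-fold lower in mean, and Scube3 fell by 1.81 and 2.23 on the log2 scale. Disp2, named after its values were seen like the other genes called in a single mutant, was called lower in NFIB mutant tumors (-4.80). In the CARM1 knockout it stood at 2.37 and 2.91 CPM in replicates 1 and 2 and at 121 CPM in replicate 3, the library with high neuroendocrine markers, against 85.9 to 161 CPM in TKO, and it was not called.

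Among 5 receptors and co-receptors, CARM1 knockout tumors had 2 called higher and Boc called lower, and NFIB mutant tumors 3 called higher. The shares called over all genes were 38.8 and 45.8%. The co-receptor Gas1 went from 0.0959, 13.5 and 24.6 CPM in TKO to 232 to 288 CPM in CARM1 knockout and 53.6 to 537 CPM in NFIB mutant libraries, with log2 fold changes of 4.38 and 4.48. Lrp2, an endocytic receptor that binds Shh, rose by 4.97 and 5.0 on the log2 scale from at most 0.619 CPM in TKO. The co-receptor Boc was called lower in the CARM1 knockout (-3.39, against -1.82 in the NFIB mutant), and the co-receptor Cdon higher in the NFIB mutant (1.41, against 1.09).

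Of the 18 genes that act between Smo and the Gli factors, 2 were called upward and 2 downward in the CARM1 knockout and 2 and 3 in the NFIB mutant, where 38.8 and 45.8% of all genes were called, and 6 and 9 of the 18 had an unadjusted p under 0.05. Their median log2 fold changes were -0.09 and -0.11, beside -0.03 and -0.05 over all genes. Sufu, which holds the Gli proteins in the cytoplasm, was at 34.7 to 55.9 CPM in TKO, 54.3 to 60.4 CPM in CARM1 knockout and 49.7 to 68.6 CPM in NFIB mutant libraries (log2 fold changes 0.29 and 0.30, not called). Evc and Evc2, partners of Smo at the base of the cilium, were called higher in both (0.95 and 1.19 for Evc, 1.95 and 1.66 for Evc2). Gpr161, a ciliary receptor that restrains the pathway, was called lower in both mutants (-1.21 and -1.49). So was Gsk3b, a kinase that phosphorylates Gli proteins before their processing (-0.88 and -1.23). Efcab7, which links Evc proteins to the cilium, was called lower in the NFIB mutant (-0.91, against -0.85). Of 5 genes of the primary cilium, only Tulp3, which carries receptors into the cilium, was called, and it rose by 0.86 and 0.97 on the log2 scale. Kif3a, named after its values were seen, lay below TKO in every mutant library. Its log2 fold changes of -0.78 and -0.76 (edgeR adjusted p = 0.0361 and 0.0336) fell just short of the size needed for a call.

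**Figure D3:**
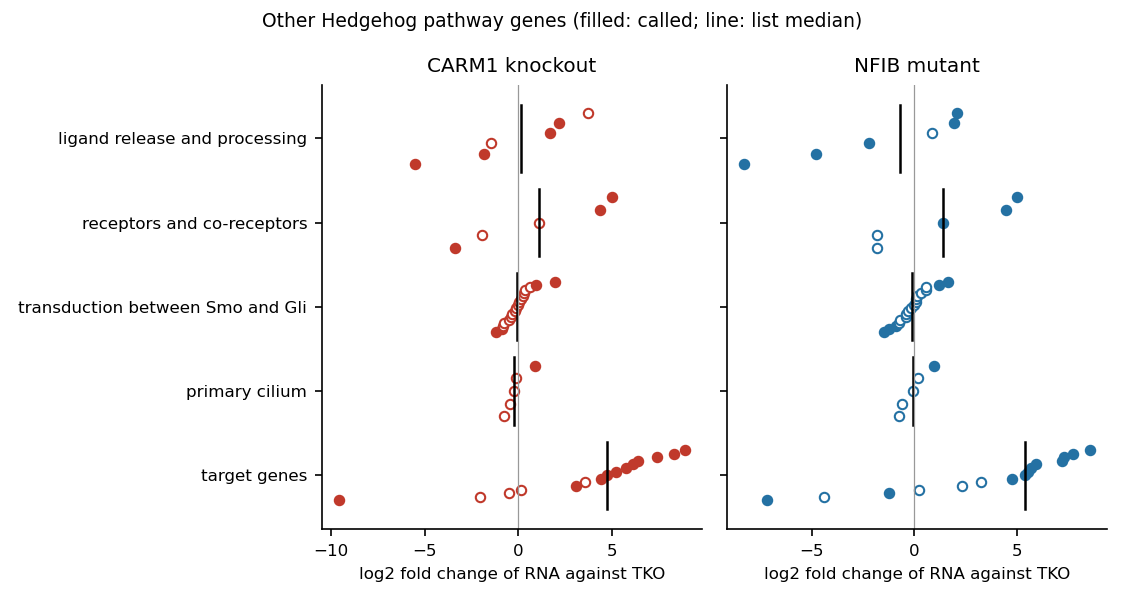
Log2 fold change of RNA against TKO for the 49 other pathway genes tested, by role, in CARM1 knockout (left) and NFIB mutant tumors (right). Filled points were called, and the black line is the median of the list. The target genes lie mostly to the right, with medians of 4.74 and 5.38, and the genes between Smo and Gli lie on both sides of 0.

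Of 16 genes known as Hedgehog targets in some tissues, 15 were tested. In CARM1 knockout 10 were called higher and 1 lower, where 20.5 and 18.3% of all genes were. In NFIB mutant tumors 9 were called higher and 2 lower, where 22.3 and 23.5% of all genes were. The list medians of 4.74 and 5.38 compare with -0.03 and -0.05 over all genes tested. Among those with no overlap with TKO, the largest rises were those of the cyclin Ccnd2 (0 to 0.917 CPM in TKO, 97.8 to 218 CPM in CARM1 knockout, 56.4 to 134 CPM in NFIB mutant libraries) and of the mesenchymal transcription factor Osr1 (log2 fold changes 7.39 and 7.28). Snai1, a factor of epithelial to mesenchymal transition, rose by 6.36 and 5.68, the secreted Wnt inhibitor Sfrp1 by 4.74 and 7.20, and the matrix protein Spp1 by 5.73 and 5.38. Foxf2 and Ccnd1 also rose without overlap, and the forkhead factors Foxc2 and Foxl1, with at most 1 count in any TKO library, were called higher in both mutants. Set against 3 counts per library, Foxc2 was at least 75.9-fold and 60.5-fold higher in mean and Foxl1 at least 11.1-fold and 9.61-fold, and for both genes every CARM1 knockout library lay above TKO while NFIB mutant replicate 1 had no count. With both genes at these bounds the medians of the list were 4.43 and 4.75. Mycn, a Myc family oncogene, fell by 9.57 and 7.20 on the log2 scale. It was at 1171 and 1558 CPM in TKO replicates 1 and 2, at 19.0 CPM in TKO replicate 3, and at 0.815 to 14.4 CPM in the mutants. Foxf1 was called higher in the CARM1 knockout alone (3.08, against 2.30 in the NFIB mutant) and the survival factor Bcl2 lower in the NFIB mutant alone (-1.22, against -0.50), and neither was called between the mutants. Ptch1, Gli1 and Hhip, the targets among the 9 genes, were not called higher in either mutant. Osr1, Snai1, Sfrp1 and Spp1 are also expressed by fibroblasts, whose markers moved in the same direction. The part of the fibroblast shift was not tested for these, for any other gene of the list or for the list medians.

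All 68 peaks were tested, and for peaks a size of 0.5 on the log2 scale was enough for a call at the same adjusted p. In CARM1 knockout 31 were called higher and 19 lower, against 71.1% of all 111116 peaks tested, 38.7% higher and 32.4% lower. In NFIB mutant tumors 28 were called higher and 21 lower, where 73.3% of all peaks were called, 39.3% higher and 34.0% lower. The mutants did not differ from each other at any of the 68 peaks by the quasi-likelihood test of edgeR, which called 0% of all peaks, although 6814 peaks had an unadjusted p under 0.05 and DESeq2 called 1060.

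The peaks divided by gene. Of the 68, 28 were called higher in both mutants and 18 lower in both, where 35.0 and 30.8% of all peaks were. All 6 mutant libraries lay above every TKO library at 28 peaks and below at 15, as they did at 33.1 and 28.6% of all peaks. Of the 28 that rose, 27 lay at Gli2 or Gli3 and 1 at Dhh. Of the 25 peaks of the other 7 genes, 12 fell in both mutants and 10 were called in neither. Among the 44 intronic peaks 24 rose and 8 fell in both, among the 14 exonic peaks 2 rose and 5 fell, and among the 9 promoter peaks 2 rose and 5 fell. With 27 of the 28 rising peaks at Gli2 or Gli3, place and gene cannot be told apart in these counts. The shares of all peaks by place were not worked out. The peaks that rose were poorer in G and C, with a median of 44.8% in the 300 bases around the middle against 57.3% in those that fell, and all peaks called in both mutants ran the same way (46.0 and 51.0%).

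Promoter peaks of the ligands were more open in TKO, although their RNA was at or near the limit of detection there. The Shh promoter peak (chromosome 5, 28466740 to 28467175) had 1.82, 0.958 and 2.07 CPM in TKO, 0.542, 0.441 and 0.290 CPM in CARM1 knockout and 0.359, 0.649 and 0.314 CPM in NFIB mutant libraries. All mutant libraries lay below TKO, with log2 fold changes of -1.92 and -1.86 (adjusted p = 0.0102 and 0.0110 from the quasi-likelihood test of edgeR). An intronic peak 2238 bp from the start fell by 2.03 and 1.79 on the log2 scale. Both lie within annotated genes that overlap Shh.

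The Ihh promoter peak (chromosome 1, 74950787 to 74952276) had 7.33, 7.54 and 8.53 CPM in TKO, 2.51, 2.46 and 3.29 CPM in CARM1 knockout and 2.03, 1.15 and 2.35 CPM in NFIB mutant libraries. It fell by 1.5 and 2.08 on the log2 scale (adjusted p = 0.00651 and 0.00123 from the quasi-likelihood test of edgeR), and TKO lay well above both mutants. The other 2 Ihh peaks were called in neither mutant. At Dhh the promoter peak (chromosome 15, 98897571 to 98899012) fell from 11.3, 11.2 and 4.90 CPM to 3.33, 3.88 and 4.98 CPM and 4.63, 4.38 and 1.92 CPM, and TKO replicate 3 lay within the range of CARM1 knockout. Both its calls (adjusted p = 0.0437 and 0.0253) were lost under library totals alone and with scaling on start-site peaks of uniformly expressed genes. The CARM1 knockout call was also lost without TKO replicate 1 or 2 and without CARM1 knockout replicate 1 or 2, 6 of 16 alternatives in all. An intronic Dhh peak 2733 bp from the start, at 0.765 to 1.08 CPM in TKO, was higher in every mutant library (1.47 to 3.08 CPM), but its call in CARM1 knockout was lost under 9 of 16 alternatives, among them DESeq2 and leaving out any single TKO or CARM1 knockout library or NFIB mutant replicate 1.

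**Figure D4:**
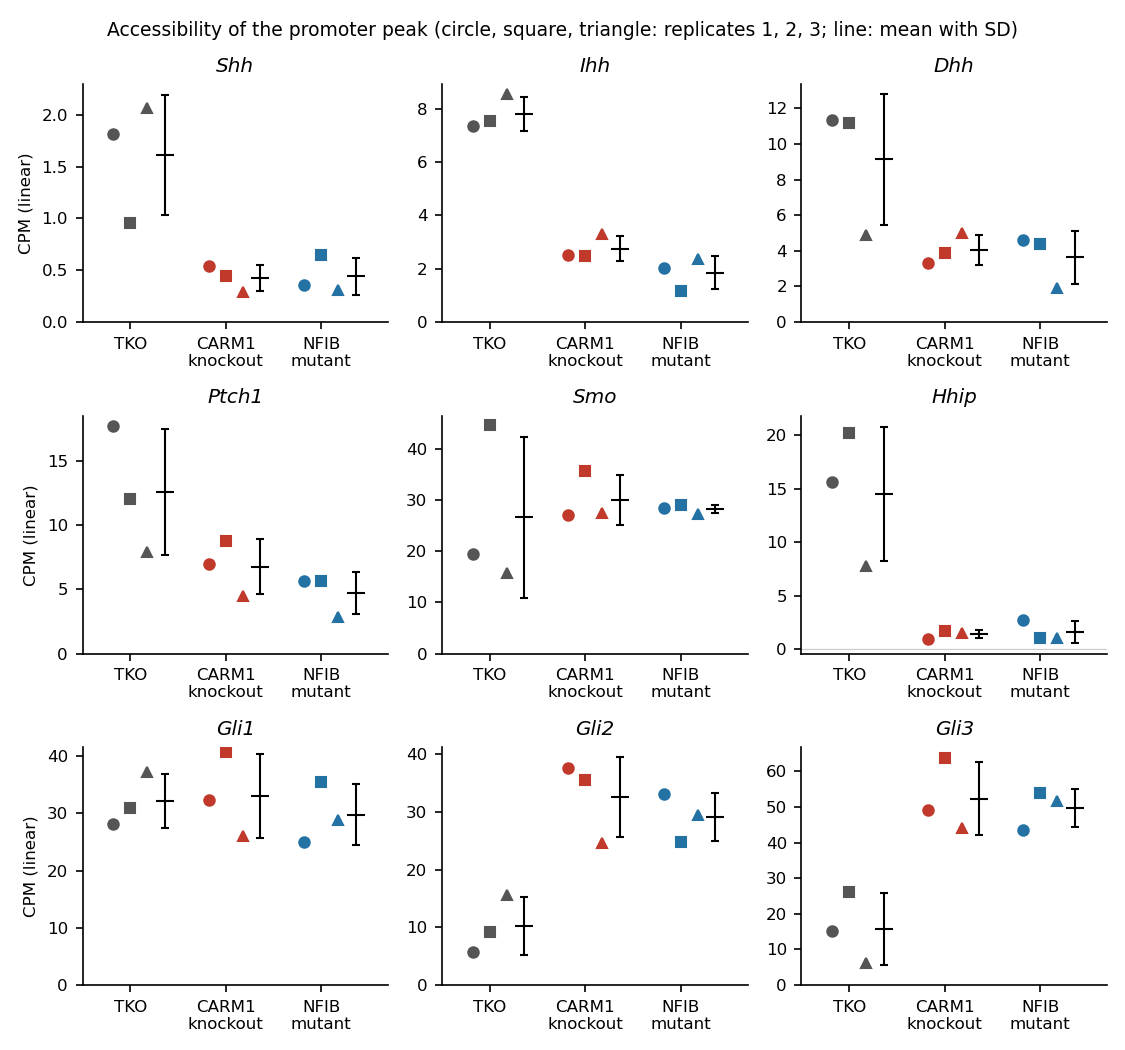
Accessibility of the promoter peak of each of the 9 genes in CPM on linear axes, with a separate scale in each panel. Points are the 3 libraries of each genotype and lines the mean with its SD. The promoter peaks of Gli2 and Gli3 were higher in all 6 mutant libraries, those of Shh, Ihh and Hhip lower in all 6, and that of Gli1 overlapped between 25.0 and 40.7 CPM.

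At Ptch1 4 of 7 peaks fell in both mutants. The promoter peak (chromosome 13, 63572316 to 63573939) had 17.8, 12.1 and 7.94 CPM in TKO, 6.95, 8.79 and 4.52 CPM in CARM1 knockout and 5.65, 5.68 and 2.82 CPM in NFIB mutant libraries. CARM1 knockout replicate 2 lay above TKO replicate 3, and the call in CARM1 knockout (log2 fold change -0.90, adjusted p = 0.0807 from the quasi-likelihood test of edgeR) was lost under 7 of 16 alternatives, while that in NFIB mutant tumors (-1.42, adjusted p = 0.0129) was kept under all 16. A stronger peak 8705 bp from the start (chromosome 13, 63562696 to 63567091) covers the RefSeq start used above. It was named after its values were seen. Its level was 68.9 to 85.5 CPM in TKO, 43.8 to 62.0 CPM in CARM1 knockout and 44.8 to 57.0 CPM in NFIB mutant libraries. All mutant libraries lay below TKO, with log2 fold changes of -0.62 and -0.68 (adjusted p = 0.00760 and 0.00460 from the quasi-likelihood test of edgeR). The largest fall was at an exon 58382 bp from the start, from 0.718 to 3.77 CPM in TKO to 0.218 to 0.288 CPM and 0.0981 to 0.216 CPM.

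The Smo promoter peak (chromosome 6, 29735123 to 29737669) mirrored the RNA in that one TKO library stood out. It had 19.4, 44.8 and 15.8 CPM in TKO, 27.1, 35.7 and 27.5 CPM in CARM1 knockout and 28.5, 29.1 and 27.4 CPM in NFIB mutant libraries. TKO replicate 2 was the highest of all 9 libraries and the other 2 TKO libraries were the lowest. The log2 fold changes of 0.17 and 0.08 were not called, and without TKO replicate 2 they were 0.77 and 0.68 and both called (adjusted p = 0.0103 and 0.0160 from the quasi-likelihood test of edgeR). They were also called with library totals alone, at 0.81 and 0.72. A strong peak in an intron, 12906 bp from the start, had 355, 344 and 436 CPM in TKO, 128, 120 and 148 CPM in CARM1 knockout and 251, 140 and 122 CPM in NFIB mutant libraries. It fell by 1.52 and 1.15 on the log2 scale (adjusted p = 0.00042 and 0.00164 from the same test). The RNA of Smo was not called lower in either mutant. The sequence around the middle of this intronic peak is almost wholly a short tandem repeat of gctgt and ctgt. Reads from such a repeat may be hard to place, and the part of this in the level and fall of the peak was not tested.

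Both Hhip peaks fell in both mutants. The promoter peak (chromosome 8, 80057004 to 80058729), which covers the promoter sequence printed above, had 15.6, 20.2 and 7.77 CPM in TKO, 0.956, 1.69 and 1.52 CPM in CARM1 knockout and 2.75, 1.03 and 1.02 CPM in NFIB mutant libraries. No mutant library came near TKO, with log2 fold changes of -3.38 (standard error 0.55, adjusted p = 0.000563) and -3.19 (standard error 0.55, adjusted p = 0.000661) from the quasi-likelihood test of edgeR. The intronic peak 3571 bp from the start, whose middle is printed above, fell from 8.28, 12.4 and 1.35 CPM to 0.207, 0.0768 and 0.749 CPM and to 0.0299, 0.0962 and 0.0588 CPM. In both peaks TKO replicate 3 was the lowest TKO library, as it was for Hhip RNA, although the labels do not tie the replicate numbers of the RNA and ATAC libraries to the same animals.

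The Gli1 promoter peak (chromosome 10, 127338717 to 127342791) had 28.1, 31.0 and 37.3 CPM in TKO, 32.4, 40.7 and 26.0 CPM in CARM1 knockout and 25.0, 35.5 and 28.9 CPM in NFIB mutant libraries. The groups overlapped fully, and the log2 fold change was 0.04 (standard error 0.21) and -0.11 (standard error 0.21), neither called. The direction changed with the scaling, and with library totals alone the peak was called higher in the CARM1 knockout (0.60). The other Gli1 peak, at an exon 9597 bp from the start, fell from 2.91 to 6.12 CPM in TKO to 0.653 to 1.48 CPM and 0.451 to 1.13 CPM.

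At Gli2 11 of 24 peaks rose in both mutants and 4 fell. The promoter peak (chromosome 1, 119050708 to 119054422) had 5.80, 9.27 and 15.6 CPM in TKO, 37.5, 35.4 and 24.7 CPM in CARM1 knockout and 33.1, 24.8 and 29.4 CPM in NFIB mutant libraries. All mutant libraries were above TKO, and the log2 values rose by 1.67 (standard error 0.32, adjusted p = 0.00142) and 1.51 (standard error 0.32, adjusted p = 0.00219) from the quasi-likelihood test of edgeR. The largest rise was at the intronic peak 155052 bp from the start (chromosome 1, 118897988 to 118899147), which went from 0.350, 0.216 and 0.380 CPM to 12.9, 4.41 and 3.46 CPM and 9.98, 7.07 and 2.37 CPM, log2 fold changes of 4.45 and 4.35. The largest fall in the mean of both mutants was at another intronic peak, 148046 bp from the start (chromosome 1, 118905260 to 118905887), from 2.64, 2.04 and 4.52 CPM to 0.207, 0.154 and 0.193 CPM and 0.598, 0.216 and 0.137 CPM (-4.04 and -3.29). In NFIB mutant tumors alone the intronic peak 139668 bp from the start fell further (-4.42, against -2.45 in the CARM1 knockout). Rising and falling peaks thus stood side by side within the gene while its RNA rose.

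At Gli3 16 of 19 peaks rose in both mutants and 2 fell, while no Gli3 peak was lower in all 6 mutant libraries than in all TKO libraries. The promoter peak (chromosome 13, 15461896 to 15465398), which also lies over Gm6556, had 15.1, 26.2 and 6.08 CPM in TKO, 49.2, 63.8 and 44.0 CPM in CARM1 knockout and 43.6, 53.9 and 51.7 CPM in NFIB mutant libraries. It rose by 1.73 (standard error 0.40, adjusted p = 0.00344) and 1.65 (standard error 0.40, adjusted p = 0.0040) on the log2 scale by the quasi-likelihood test of edgeR, with no overlap. TKO replicate 3 was lowest, as in Gli3 RNA. The intronic peak 161511 bp from the start (chromosome 13, 15624163 to 15625329) rose from 0.446, 0.278 and 0.422 CPM to 8.50, 11.6 and 7.86 CPM and 7.98, 8.51 and 9.06 CPM, with log2 fold changes of 4.60 (adjusted p = 2.43e-05) and 4.47 (adjusted p = 2.35e-05). The 6 mutant libraries were close together here, including CARM1 knockout replicate 3.

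**Figure D5:**
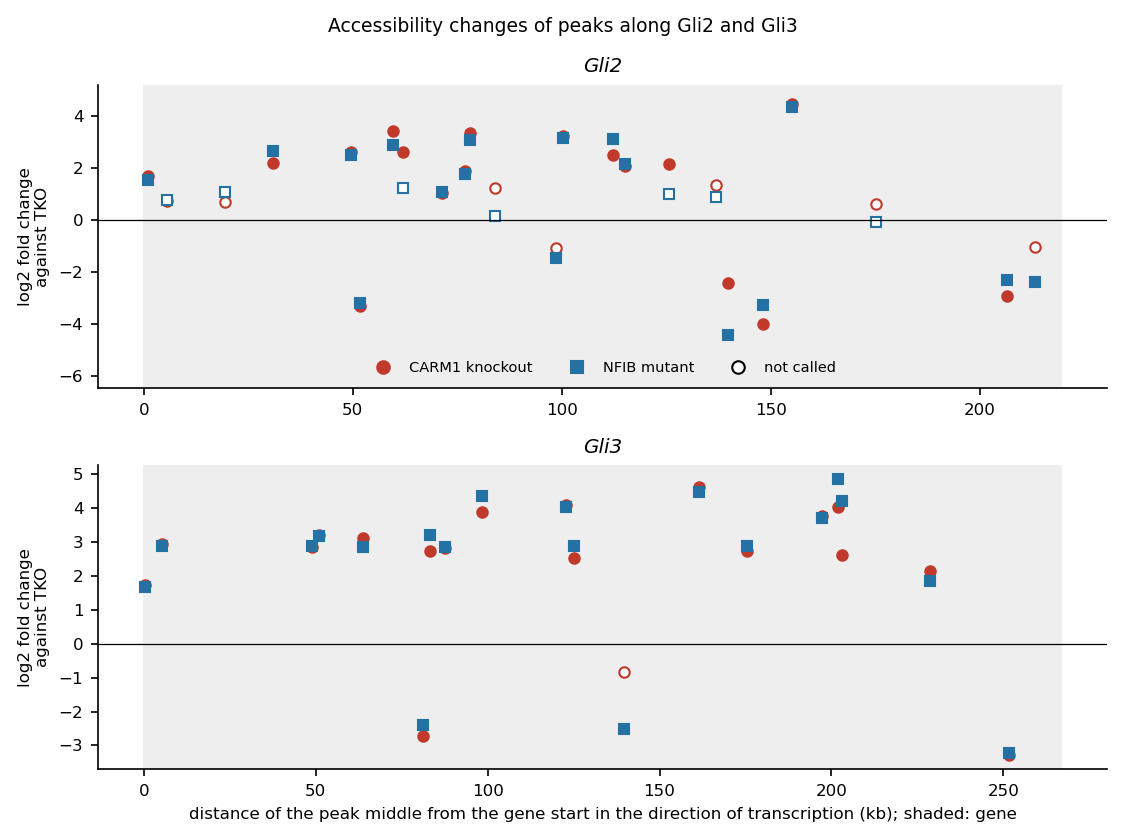
Log2 fold change of accessibility against TKO for the 24 peaks of Gli2 and the 19 peaks of Gli3, by the distance of the peak middle from the gene start in kb. Circles are CARM1 knockout and squares NFIB mutant tumors, filled where called, and the shaded span is the gene. Rising peaks spread over the length of Gli3, and at Gli2 falling peaks lie among the rising ones.

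Leaving out CARM1 knockout replicate 3 left 31 of the 68 peaks called upward and 20 downward in CARM1 knockout. Without each of the 9 libraries in turn the counts ranged from 47 to 52 called peaks in the CARM1 knockout and from 46 to 50 in the NFIB mutant.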

How the data were processed

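RNA-seq and ATAC-seq were each measured in 3 libraries of 3 genotypes. The authors deposited whole-number counts per gene, made with HTSeq per the submitters' processing notes, and counts per peak, made with featureCounts 1.6.3 per the file headers. The build was GRCm38, with Genrich also named. Whether gene counting used strand is not given in the sources used here, so reads of overlapping genes cannot be told apart. The 5 summary rows without a gene were left out.

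Genes were placed with GENCODE M21, which held 45143 of the 46078 identifiers. Each table was fitted once over its 9 libraries with edgeR 4.0.16 (R 4.3.3, filterByExpr, TMM factors, robust quasi-likelihood test) and p-values were adjusted by Benjamini-Hochberg over all features tested. The script was tested on simulated data. Peak windows and promoters came from GRCm38 and RefSeq GRCm38.p6. DESeq2 1.42.0, other scalings and filters, a replicate block and leaving out each library were alternatives. An exact permutation test of 3 against 3 libraries cannot go below p = 0.1 and was not used.

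The 9 genes, the pathway and marker lists and the tests were chosen with earlier results of these data known. Pathway genes were named when both mutants gave a call of like direction, with no overlap with TKO and at least 1 CPM in the higher genotype, up to 5 per list and direction, with Sufu always named. Single genes that the rule or the lists hold may be not reported here. Peaks named were each gene's promoter peak and, by the same rule, its largest rise and fall. A Ptch1 peak over its RefSeq start was added.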

Additional observations from a re-analysis of the deposited data

How the results depend on the processing

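With 3 libraries per genotype the spread is poorly known, and genes near 3 counts cannot be compared. Of the 9 genes, 7 were tested, and edgeR called 3 in CARM1 knockout tumors and 2 in those with mutant NFIB. Requiring at least 10 counts in every library left 3 genes tested, with 1 called in each mutant. Fitting only the TKO and CARM1 knockout libraries left 5 tested and 1 called. Leaving out single libraries, with 7 or 8 genes tested and Shh the gene added, gave 1 to 3 calls in each mutant. Called peaks, 50 and 49 of 68 tested, became 25 and 28 of 43 tested with at least 10 counts in every library. That filter removes peaks near 0 in any genotype. DESeq2 called 4 and 3 genes.

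Directions that changed were all of small or uncalled differences. Leaving out single libraries moved Dhh between -2.55 and 1.93 (CARM1 knockout against TKO), -2.66 and 0.018 (NFIB mutant against TKO) and -2.03 and 4.02 (CARM1 knockout against NFIB mutant), on the log2 scale. For the last comparison it moved Ptch1 between -0.031 and 0.74, Gli1 between -0.70 and 1.12, Gli2 between -0.91 and 0.28 and Gli3 between -0.15 and 0.17, and library totals alone gave 0.022 for Gli3. The Smo promoter peak ranged from -0.089 to 0.77 and from -0.18 to 0.68 in the 2 mutants, with -0.00482 and -0.063 in DESeq2. The Gli1 promoter peak ranged from -0.13 to 0.19 and from -0.26 to 0.019, with -0.13 in DESeq2 for CARM1 knockout and 0.45 (library totals alone), 0.057 (at least 10 counts in every library) and 0.32 (scaled on start-site peaks of uniformly expressed genes) for NFIB mutant tumors. The cause was not tested. Library totals alone shifted the median peak by 0.58 and 0.57 and the median gene by -0.27 and -0.32 on the log2 scale, and start-site scaling shifted the median peak by 0.37 and 0.44.

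The replicate numbers were not taken to pair the samples. Of 9 correlations of same-numbered libraries, 1 was over 0.1 in each assay. In 3 of 9 comparisons for RNA and 2 of 9 for ATAC the correlation was best with the own number. With 3 libraries per genotype these values cannot settle whether samples were paired, and the study's methods state that littermates served as controls. With a replicate block, 3 and 2 of the 9 genes, 20 and 24 other pathway genes and 48 and 47 peaks were called, and 0 between the mutants. Under the block the intronic Dhh peak lost its call in CARM1 knockout (0.95, edgeR adjusted p = 0.118), as it did under 8 other alternatives.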
